A study of Mus musculus with 2 samples.

Results

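Genes of histone lysine modifying enzymes were examined for binding of Myc-Tagged Dlx5 in a mouse T-cell lymphoma. Members were the protein-coding genes on the autosomes of GRCm38 (mm10) whose symbol begins with Kdm, Kmt, Kat, Hdac or Setd followed by a number, together with Ezh1, Ezh2, Nsd1, Crebbp, Ep300 and Dot1l. This rule gave 54 of 20665 autosomal protein-coding genes, of which 30 encode writers and 24 encode erasers. The writers comprised 20 methyl writers and 10 acetyl writers, and the erasers comprised 15 methyl erasers (lysine demethylases) and 9 acetyl erasers (deacetylases). The members by symbol alone include SET domain proteins, such as Setd3, whose best known substrate is not a histone lysine.

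The chromatin came from a T-cell lymphoma of Lck-Dlx5 transgenic mice, in which the Lck promoter drives Myc-Tagged Dlx5 in thymocytes. The Myc-Tag ChIP library is labelled as a C57BL/6 primary tumor and the input library, sonicated chromatin sequenced without the antibody, as a C57BL/7 primary tumor, while the study's methods name a single Lck-Dlx5 cell line and an IgG control. No wild-type T cells and no cells without the transgene were among the 2 libraries, and the age of the mice is not given in the sources used here. With 1 library per group there are no replicates, so the values below describe this library and no p-value was computed.

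Lysines of histone tails are acetylated and methylated by writers, and the marks are removed by erasers. Acetylation is generally found at active promoters and enhancers, whereas the effect of methylation depends on the residue, with H3K4 methylation at promoters and enhancers, H3K36 methylation over transcribed genes, and H3K9 and H3K27 methylation at silent ones. Several of these genes are known in T-cell and other leukemias, in particular Kmt2a (MLL), which is rearranged in human leukemia, and Ezh2, the catalytic subunit of the Polycomb complex PRC2.

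Of the 54 members, 26 (48.1%, 95% Wilson interval 35.4 to 61.1%) had at least 1 Myc-Tag interval, that is a called peak, overlapping the gene body or the 10 kb on either side. Among all autosomal protein-coding genes this share was 20.1%. There were 32 different intervals at the 26 genes, and 6 genes had 2 intervals each (11.1%, against 3.32% of all genes). The input calls held none of these 32, and a count of 0 of 32 allows a share of up to 9.38%. Over the whole library, 28 of 3477 Myc-Tag intervals (0.805%) were called in the input as well. Erasers had an interval at 13 of 24 genes (54.2%, 35.1 to 72.1%) and writers at 13 of 30 (43.3%, 27.4 to 60.8%), and these intervals of counting error overlapped widely. This order of erasers over writers turned in some settings and held in others, narrowly so for the gene body alone (37.5% of erasers and 36.7% of writers). With summit heights of at least 16 it was 12 of 30 writers and 8 of 24 erasers, with heights of at least 19 it was 7 and 3, and with each interval counted only at its nearest coding gene it was 11 and 8. Kdm5b was not counted in that last setting, as its summit was nearest to the body of Mgat4e, though 50 bp from the Kdm5b end. With Kdm5b counted, the order would not have turned there. By class, the share was 66.7% of deacetylases (6 of 9), 10 of 20 genes for methyl writers, 46.7% of demethylases (7 of 15) and 30.0% of acetyl writers (3 of 10). The interval of counting error of the acetyl writers (10.8 to 60.3%) reached below the 20.1% of all genes. Counted only at the nearest coding gene, the deacetylases numbered 2 of 9 (22.2%, 6.32 to 54.7%), with 2 of 10 acetyl writers, 6 of 15 demethylases and 9 of 20 methyl writers, against 13.9% of all genes. Under that setting the deacetylases thus no longer had the highest share, and the intervals of both acetyl classes reached below the share of all genes. The Wilson intervals treat genes as separate draws and cover counting error only.

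**Figure D1:**
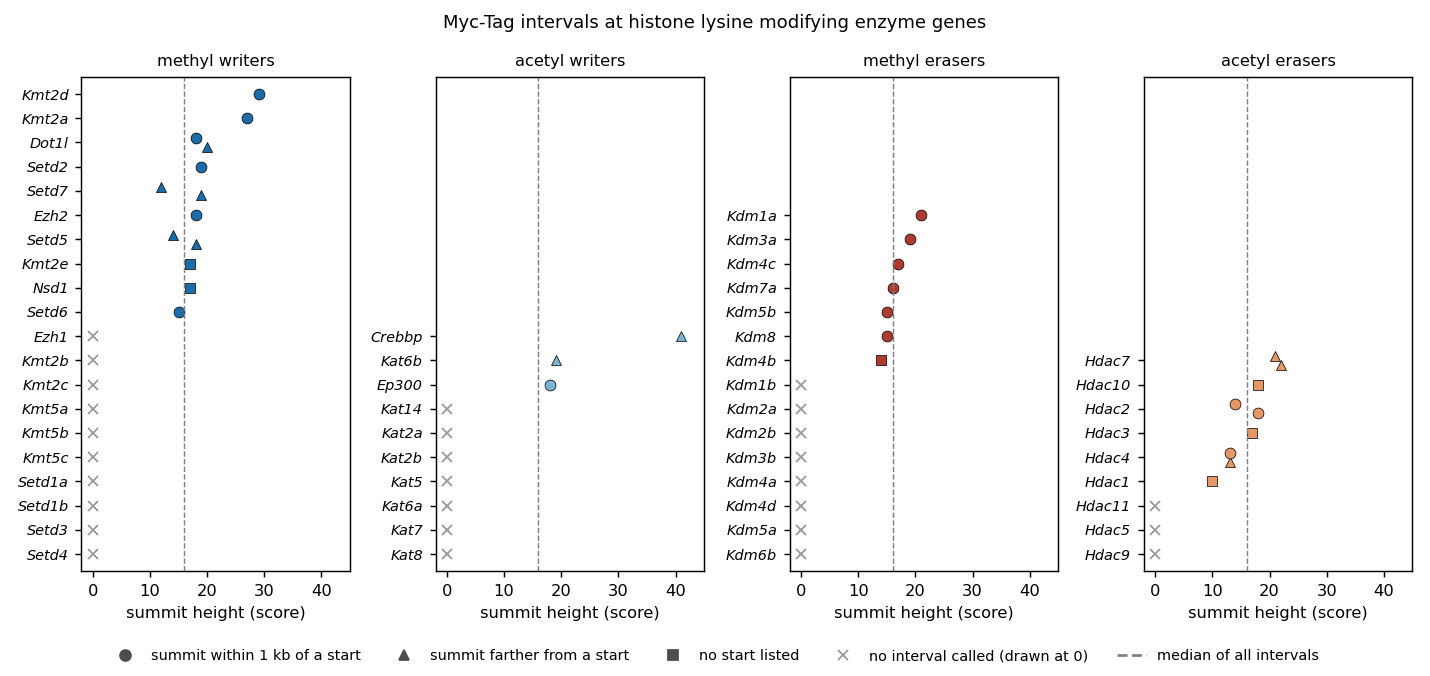
Summit height (score, no stated normalization) of each Myc-Tag interval at the 54 members, in a panel for each class, with the marker showing where the summit lay and a cross at 0 for genes without a called interval. The 32 intervals had heights from 10 to 41, and 28 genes had no interval.

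Summit heights were deposited as whole numbers, and how they were scaled is not given in the sources used here. The sequencing depth of the library is therefore unknown in what follows. The median summit height of the 32 intervals was 18 (95% interval of the median 15 to 19), against 16 over all 3453 autosomal intervals, a value inside that interval. Heights of 19 or more were found in 11 of the 32 (34.4%) and in 970 of all autosomal intervals (28.1%). At writers the median height was 18 and at erasers 16.5, with ranges of 12 to 41 and 10 to 22. Intervals with a height of at least 16, the median of the library, were found at 20 members, against 11.2% of all genes, and intervals with a height of at least 19 at 10 members (7 writers and 3 erasers), against 6.4%. The heights at these genes thus lay in the usual range of the library.

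Gene length differed between the members and other genes. The median length of the members was 44.8 kb, against 17.5 kb for all genes. Over all genes, the share with an interval was 11.5% in the shortest of 5 equal classes of gene length, which held no member, and between 20.7 and 23.6% in the other 4. Weighted by the classes in which the members fall, the share over all genes was 22.5%. In the longest class (57.9 kb and more) 14 of 23 members had an interval, against 22.2% of all genes of that length. The counts were 8 of 17 from 25.1 to 57.9 kb, against 23.6%, 2 of 9 from 12.0 to 25.1 kb, against 22.3%, and 2 of 5 from 4.39 to 12.0 kb, against 20.7%. The part of gene length in the members' share was not tested.

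**Figure D2:**
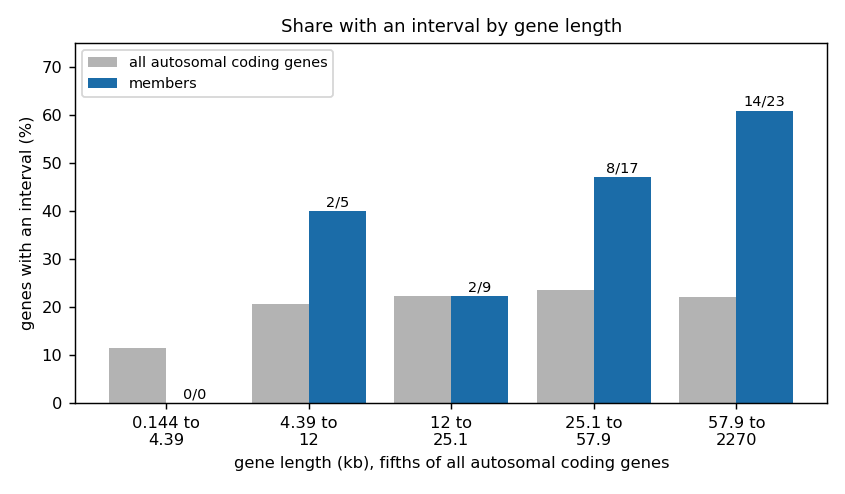
Percentage of genes with a Myc-Tag interval in the gene or within 10 kb, for 5 equal classes of all autosomal coding genes by length (kb), in gray for all genes and in blue for members. Members stood above all genes in 3 of the 4 classes that held any (14 of 23, 8 of 17 and 2 of 5) and level with them from 12.0 to 25.1 kb (2 of 9).

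The start of transcription was then considered. RefSeq starts with a strand were at hand for 41 of the 54 members, and 15 of these (36.6%, 95% Wilson interval 23.6 to 51.9%) had a summit within 1 kb of a start, against 12.1% of the 16457 autosomal genes with a start. Erasers reached 8 of 16 (28.0 to 72.0%) and writers 7 of 25 (28.0%, 14.3 to 47.6%), again with wide overlap. By class, 6 of 10 demethylase genes (60.0%), 6 of 16 methyl writers (37.5%), 2 of 6 deacetylases (33.3%) and 1 of 9 acetyl writers (11.1%) had a summit at a start.

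**Figure D3:**
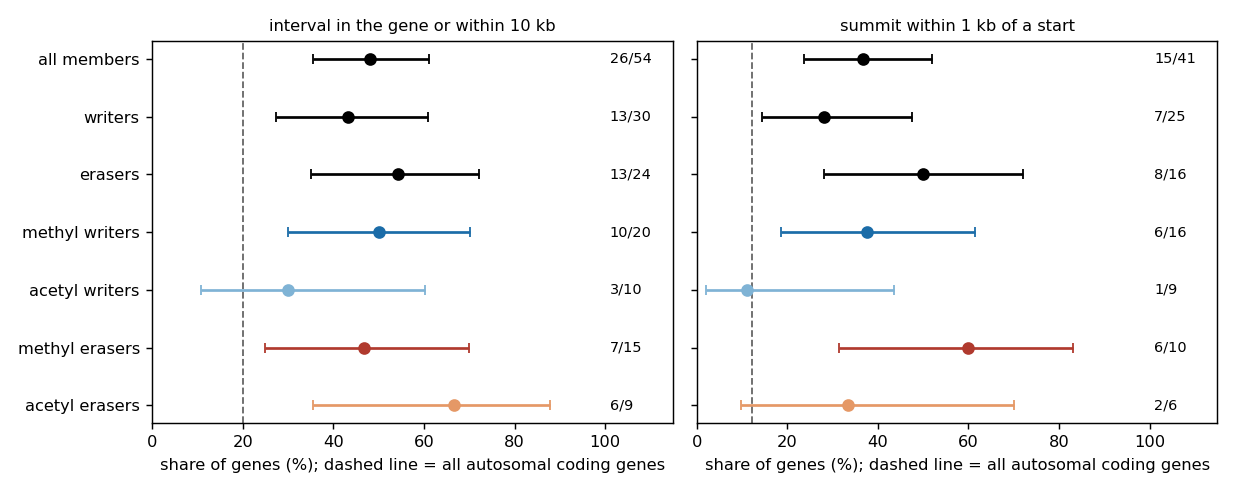
Percentage of genes with an interval in the gene or within 10 kb (left) and with a summit within 1 kb of a RefSeq start (right), by class, with 95% Wilson intervals as bars, counts at the right edge and the share of all autosomal coding genes as a dashed line (20.1 and 12.1%). The intervals of writers and erasers overlapped in both panels.

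To show what lies at these starts, the bases before the start are given for the H3K4 methyltransferase Kmt2a and for 2 pairs of related genes of which one had a summit and the other none within 10 kb, from the RefSeq promoters of GRCm38.p6, written 5′ to 3′ on the strand of the gene with CG in capitals.
Kmt2a, chr9:44881290-44881409, minus strand: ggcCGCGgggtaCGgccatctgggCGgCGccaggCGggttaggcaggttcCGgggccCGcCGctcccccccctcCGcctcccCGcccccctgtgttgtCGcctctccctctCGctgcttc
Ezh2, chr6:47595031-47595150, minus strand: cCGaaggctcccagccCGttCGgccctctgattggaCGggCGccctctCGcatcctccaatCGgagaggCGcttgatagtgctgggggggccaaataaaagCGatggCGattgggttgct
Ezh1, chr11:101226464-101226583, minus strand: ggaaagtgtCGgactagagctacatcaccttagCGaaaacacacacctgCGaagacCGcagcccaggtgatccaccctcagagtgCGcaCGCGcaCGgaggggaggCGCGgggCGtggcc
Kdm1a, chr4:136602724-136602843, minus strand: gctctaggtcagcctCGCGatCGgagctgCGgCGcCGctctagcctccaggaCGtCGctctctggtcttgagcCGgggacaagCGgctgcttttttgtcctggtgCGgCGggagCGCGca
Kdm1b, chr13:47043379-47043498, plus strand: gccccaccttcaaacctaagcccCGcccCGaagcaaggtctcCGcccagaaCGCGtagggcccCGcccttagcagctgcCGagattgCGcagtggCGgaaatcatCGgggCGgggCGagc

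These 5 stretches of 120 bases all hold many CG pairs, 13 at Kmt2a, 10 at Ezh2, 11 at Ezh1, 14 at Kdm1a and 12 at Kdm1b, so neither gene of a pair lacked them. In the whole RefSeq windows, from 250 bases before to 50 after the start, the gene with a summit held more of them in both pairs, 31 at Ezh2 against 23 at Ezh1 and 29 at Kdm1a against 26 at Kdm1b. Other related genes went the other way, with 49 at Crebbp, without a summit at its start, against 30 at Ep300, and 56 at Kmt2c, likewise without, against 36 at Kmt2a and 27 at Kmt2d. The summit lay 183 bp from the start of Kmt2a, 86 bp from that of Ezh2 and 29 bp from that of Kdm1a, but 28779 bp from that of Kdm1b and 215980 bp from that of Ezh1. Over the windows of this kind, the median number of CG pairs was 30.5 in the 16 member windows with a summit within 1 kb and 21 in the 43 member windows without one. Over all 20085 windows of autosomal coding genes it was 25 with a summit and 11 without.

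The letters TAATT or AATTA, the Dlx motif named in the study read on both strands (TAATTA holds both), were found in 2 of the 16 member windows with a summit within 1 kb (12.5%) and in 6 of the 43 without (14.0%). Over all windows they were found in 13.9% of those with a summit, 24.5% of those without and 23.3% in all. CCAAT or ATTGG was found in 5 of the 16 (31.2%) and 18 of the 43 (41.9%), and in 38.1% of all windows. The 2 windows with both a summit and TAATT belong to Hdac4 and Kdm8, and the bases before their starts are shown with the motif in capitals.
Hdac4, chr1:92180342-92180461, minus strand: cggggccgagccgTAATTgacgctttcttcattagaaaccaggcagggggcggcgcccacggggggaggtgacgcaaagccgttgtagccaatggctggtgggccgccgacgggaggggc
Kdm8, chr7:125444370-125444619, plus strand: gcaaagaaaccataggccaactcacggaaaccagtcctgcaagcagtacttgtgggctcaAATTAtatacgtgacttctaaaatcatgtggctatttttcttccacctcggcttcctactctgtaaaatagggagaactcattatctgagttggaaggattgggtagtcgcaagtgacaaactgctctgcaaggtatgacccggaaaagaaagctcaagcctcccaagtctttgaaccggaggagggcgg

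In Hdac4 the motif begins 107 bp before the start, and in Kdm8 it begins 190 bp before the start. Both summits were of ordinary or low height, 13 at Hdac4 and 15 at Kdm8. A match is a description of the letters in these windows, and the bases under the summits outside them were not examined.

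Among the methyl writers, the tallest intervals were at the H3K4 methyltransferase genes Kmt2d and Kmt2a. Kmt2d carried an interval at chr15:98871712-98872600 with a height of 29, exceeded by 163 of the 3477 Myc-Tag summits (4.69%). Its summit lay 987 bp before the only listed start, just inside the limit of 1 kb. That start is an inner one, and the summit lay inside the gene, 1885 bp from its outer end. Kmt2a, the MLL gene, carried an interval at chr9:44881144-44881820 with a height of 27, exceeded by 210 summits (6.04%), with the summit 183 bp before the start. That interval also overlapped the noncoding gene Gm39326. Setd7, an H3K4 monomethyltransferase, had 2 intervals, of which that at chr3:51559646-51561423 (height 19) had its summit 1015 bp inside the gene, just outside the limit, and that at chr3:51510860-51511277 (height 12) lay beyond the other end of the gene. Their paralogs Kmt2b and Kmt2c and the SET1 complex genes Setd1a and Setd1b had no interval, so that 3 of 7 H3K4 writer genes had one, against 20.1% of all genes.

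At the other methyl writers, Ezh2 had a single interval of height 18 (chr6:47594662-47595444), which overlapped the noncoding gene F830010H11Rik as well, whereas none was called at Ezh1, the other catalytic subunit of PRC2. The H3K36 methyltransferase gene Setd2 had an interval of height 19 (chr9:110532854-110533559) with the summit 555 bp after the start. Dot1l, the H3K79 methyltransferase gene, had an interval of height 18 (chr10:80754825-80755865) with its summit 195 bp before the start. A taller interval counted at Dot1l, of height 20 (chr10:80797770-80799272), lay past the far end of the gene and overlapped Plekhj1 and Sf3a2. Likewise the interval counted at Nsd1, another H3K36 methyltransferase gene, had a height of 17 (chr13:55321511-55322457) and overlapped Rab24 and Prelid1, with its summit 41 bp from an end of Prelid1. None of the 3 genes of H4K20 methyltransferases, Kmt5a, Kmt5b and Kmt5c, had an interval, against 20.1% of all genes.

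Of the SET domain genes without a settled role on histone lysines, Setd5 had 2 intervals, with heights of 18 (chr6:113076964-113078000) and 14 (chr6:113075874-113076685). Both overlapped the noncoding gene Gt(ROSA)26Sor, the Rosa26 locus widely used for transgenes. The taller one had its summit 130 bp inside the lower end of Setd5, though the only start listed for Setd5 was 27543 bp away, so Setd5 was not counted among genes with a summit at a start. Setd6 had an interval of height 15 (chr8:95715600-95716464) 137 bp before its start, and Kmt2e, an MLL relative that binds methylated H3K4, one of height 17 (chr5:23432870-23434659) 116 bp inside the gene. Setd3, an actin histidine methyltransferase gene, and Setd4 had none.

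An interval was counted at 3 of 10 acetyl writer genes (30.0%, against 20.1% of all genes), and the tallest of all members was among them. This was at Crebbp, the gene of the coactivator CBP, with a height of 41 (chr16:4077284-4078255) exceeded by 49 of the 3477 summits (1.41%). Its summit lay outside Crebbp, 3478 bp past the end far from the start, and 16 bp from an end of the neighboring gene Trap1, which encodes a mitochondrial chaperone. At Ep300, the gene of the related coactivator p300, an interval of height 18 (chr15:81585323-81586646) had its summit 294 bp before the start. Thus an interval at the gene's own start was found for p300 and not for CBP. Among the 8 Kat genes only Kat6b (Morf) had an interval, of height 19 (chr14:21499589-21501260), and its summit was 1079 bp after the nearest start, just outside the limit of 1 kb. No interval was counted at Kat2a, Kat2b, Kat5, Kat6a, Kat7, Kat8 or Kat14.

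The demethylase genes with an interval had 1 each, and in all 6 with a listed start the summit was within 299 bp of it. Kdm1a (LSD1), a flavin-dependent H3K4 demethylase, had the tallest at 21 (chr4:136602507-136603159), exceeded by 557 summits. Kdm3a, an H3K9 demethylase, had an interval of height 19 and, at 2024 bp, the widest of the 32 (chr6:71631789-71633812), with the summit 114 bp before a start. Kdm4c, which acts on H3K9 and H3K36, had an interval of height 17 (chr4:74251297-74252354) placed 89 bp after its inner start and 9471 bp from the outer end of the gene. In these 3 genes the interval thus lay at a start of their own.

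Kdm7a, a demethylase of H3K9 and H3K27, had an interval of height 16 (chr6:39206781-39207433) with the summit 299 bp before the start. Kdm5b, an H3K4 demethylase gene, had one of height 15 (chr1:134559894-134560445) 50 bp before the start, which also overlapped the coding gene Mgat4e. Kdm8, whose demethylase activity is in doubt, had one of height 15 (chr7:125444040-125444876) 4 bp after the start. Kdm4b had one of height 14 (chr17:56325376-56326472), and no start was listed for it, but the summit lay 222 bp inside an end of the gene. Demethylase genes without an interval were Kdm1b, Kdm2a, Kdm2b, Kdm3b, Kdm4a, Kdm4d, Kdm5a and Kdm6b. By residue, 2 of 4 genes for H3K4 demethylases, 4 of 7 for H3K9 demethylases and 1 of 2 for H3K27 demethylases had an interval, against 20.1% of all genes. Neither of the CXXC domain genes Kdm2a and Kdm2b, whose products remove H3K36 methylation, had one. The Kdm4 genes, of which some encode enzymes that act on H3K36 as well, were counted under H3K9. Of these, Kdm4b and Kdm4c had an interval and Kdm4a and Kdm4d had none.

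All 3 autosomal class I deacetylase genes were counted as having an interval, against 20.1% of all genes. No start was listed for Hdac1 and Hdac3, and Hdac2 had a summit at its own start, against 12.1% of genes with a start. Hdac2 had 2 intervals on either side of the start, of height 18 (chr10:36973851-36974943) with the summit 400 bp before and of height 14 (chr10:36974971-36975536) with the summit 720 bp after. The interval counted at Hdac1, of height 10 (chr4:129514272-129514785), overlapped Marcksl1 and was the lowest of the 32, exceeded by 3367 summits (96.8%). The interval counted at Hdac3, of height 17 (chr18:37935119-37935925), overlapped Diaph1, with the summit 134 bp from an end of that gene. Hence 2 of these 3 calls came from intervals that lay on neighboring genes.

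Of the class IIa deacetylase genes, Hdac4 and Hdac7 had 2 intervals each and Hdac5 and Hdac9 had none. At Hdac4 both intervals had a height of 13 and lay inside the gene, with the summits 475 bp before (chr1:92180322-92181208) and 1941 bp after (chr1:92178094-92178787) the listed start. At Hdac7, a gene with a role in thymocyte development, the heights were 22 (chr15:97789497-97790814) and 21 (chr15:97849098-97850099), above the other deacetylase genes, but neither interval touched the gene body. The former overlapped Slc48a1, and the latter lay 5322 bp before a start of Hdac7 and 4603 bp from an end of Vdr. Hdac10 had an interval of height 18 (chr15:89122721-89123511) that also overlapped Tubgcp6, and Hdac11 had none.

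**Figure D4:**
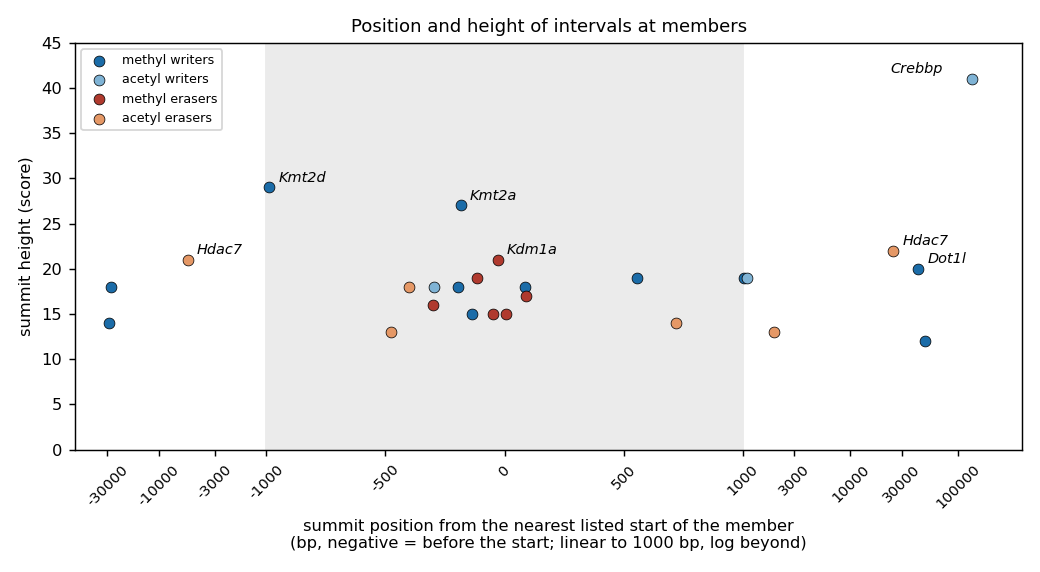
Summit height (score) against the signed distance in bp from the nearest listed start, for the 26 intervals of members with a listed start, colored by class, with the band of 1 kb on either side of the start in gray. In the band lay 16 intervals, with Kmt2d at its edge, and Crebbp was the tallest and the farthest from its start.

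In all, 16 of the 26 intervals at genes with a listed start were within 1 kb of it, at a median distance of 189 bp, and 10 were farther away. Over the whole library, 58.4% of the summits lay within 1 kb of either end of a coding gene, a wider measure that also counts the ends of genes. For 7 of the 32 intervals the nearest end of a coding gene belonged to another gene, and for Hdac1, Hdac3, Hdac10, Crebbp and Nsd1 this held for their only interval. A noncoding gene was overlapped by 8 of the 32, namely those of Setd5, Setd7, Kmt2a, Kmt2e and Ezh2 and 1 of Hdac7. An interval overlapped the gene body itself in 20 of 54 members (37.0%), against 14.1% of all genes, with 11 of 30 writers and 9 of 24 erasers. When each interval was counted only at the coding gene nearest to its summit, 19 members had one, 11 writers and 8 erasers, against 13.9% of all genes. Among the deacetylase genes not counted then, Hdac1, Hdac3 and Hdac7 had their intervals outside the gene body. The interval of Hdac10 overlapped both Hdac10 and Tubgcp6.

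Chromosome 15 held 4 members, Ep300, Hdac7, Hdac10 and Kmt2d, and all 4 had an interval. According to the paper, an extra copy of this chromosome was the sole karyotypic change that recurred in these lymphomas. Of all coding genes on that chromosome 36.7% had one, against 19.4% on the other autosomes, and the median summit height there was 18. The member intervals had a median height of 21 on chromosome 15, those of Hdac7 and Kmt2d among them, and of 17 on the other autosomes. Copy number was not measured here, and the part of the chromosome or of an extra copy of it in these 4 calls was not tested. Without chromosome 15, 22 of 50 members (44.0%) had an interval and 13 of 38 (34.2%) had a summit at a start, against 12.1% of genes on all autosomes and 22.7% of those on chromosome 15.

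For the 28 members without an interval, the nearest interval was at a median of 64.7 kb from the gene body, and 10 of them had an interval closer than 50 kb. Within 50 kb, 36 of the 54 members had an interval, against 35.1% of all genes. The closest outside the limit of 10 kb were those at 13.3 kb from Kmt5a and 15.1 kb from Kdm2a. Those at 18.7 kb from Hdac5, 28.3 kb from Kdm1b, 34.4 kb from Kat5, 35.4 kb from Kat8, 39.4 kb from Hdac11, 43.1 kb from Kmt5b, 48.5 kb from Kmt5c and 48.9 kb from Kdm2b followed. Inside the limit, the intervals farthest from the gene body were 1 of Hdac7 at 4596 bp, 1 of Setd7 at 4041 bp and those of Nsd1 at 3186 bp and Crebbp at 3079 bp, and no member interval lay between these and 10 kb. Of the genes of the same names on chromosome X, Kdm5c alone had an interval, of height 14, against 2.17% of all coding genes there. For a gene without an interval, binding was not detectable at the calling threshold.

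A list of 91 autosomal genes for partner subunits and related enzymes outside the naming rule was examined in the same way. An interval was found at 39 (42.9%, 33.2 to 53.1%), against 20.1% of all genes, and a summit within 1 kb of a start at 23 of 74 (31.1%), against 12.1%. Of the 7 PRC2 genes, Jarid2, Mtf2, Eed and Phf19 had an interval and each had a summit at its start. Those of Jarid2, which helps to recruit PRC2, and Mtf2, a Polycomb-like accessory subunit, had heights of 45 (chr13:44730754-44731518) and 36 (chr5:108065209-108066091), and the former was taller than any interval at the enzymes themselves. The other PRC2 intervals were lower, 16 at Phf19, 12 at Eed and 11 for a further one at Jarid2, and the median over the 47 partner intervals was 14, below the 18 of the members and the 16 of all autosomal intervals. Sirt4, a mitochondrial sirtuin gene, also had one of 36 (chr5:115489040-115490638), which overlapped the noncoding genes Gm24265 and Gm24407. Its summit lay 5943 bp from the listed start but 24 bp inside an end of Sirt4.

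Among genes for the SAGA, ATAC and NuA4 acetyltransferase complexes, 12 of 21 had an interval and 9 of 19 had a summit at a start, against 20.1% and 12.1% of all genes, among them Dmap1 of NuA4. This group also holds subunits of the Moz, Hbo1 and Msl complexes, such as Brpf1, which had a summit at its start as well. Of the catalytic Kat genes, 1 of 8 had an interval. For the MLL and SET1 complexes the count was 4 of 10, with Rbbp5 at a height of 23, and for the deacetylase complexes 7 of 18. Of the other lysine methyltransferase genes 4 of 16 had an interval and 0 of 11 had a summit at a start, where the shares of all genes were again 20.1% and 12.1%. Of those with an interval, Ash1l, Nsd2 and Nsd3 had no listed start and so were not among the 11. Their summits lay 466, 188 and, for the closer one at Nsd3, 415 bp from an end of the gene. The 5 H3K9 methyltransferase genes Suv39h2, Ehmt1, Ehmt2, Setdb1 and Setdb2 had no interval. The difference between these groups was not tested.

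**Figure D5:**
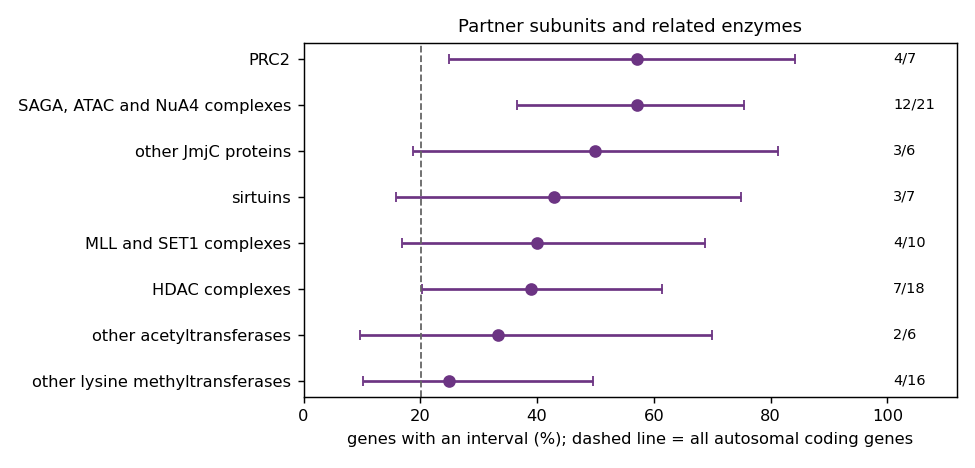
Percentage of genes with a Myc-Tag interval in the gene or within 10 kb for partner subunits and related enzymes, by complex or family, with 95% Wilson intervals as bars, counts at the right and the 20.1% of all autosomal coding genes as a dashed line. PRC2 (4 of 7) and the SAGA, ATAC and NuA4 complexes (12 of 21) had the highest shares.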

How the data were processed

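Active Motif carried out the ChIP-seq for the authors, with sequencing on an Illumina GA II, and MACS was the peak caller. The submitters' processing notes name BWA. The control used for calling, the threshold and the read extension are not given in the sources used here. The authors deposited 1 table of 5 browser tracks holding intervals and summits of the Myc-Tag and input libraries, and active regions. Summit heights are scores as the authors gave them. All 3477 active regions equal Myc-Tag intervals, as do all 28 input intervals. The processing notes name mm9, but 58.4% of the summits lay within 1 kb of an end of a coding gene in GRCm38, so the coordinates were read as mm10. The mm9 genes were not used here, so the same share in the named build was not computed, and every position and call rests on this reading. Of the summits, 3329 lay on multiples of 16 bp, so distances are not exact to the base. Starts are printed counted from 1.

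Each summit was joined to its interval. Genes came from RefSeq GRCm38.p6, and starts and strand from its promoter table. A gene was called with an overlap of at least 1 bp within 10 kb of its body. All members were accounted for, in the order of their roles. Members and lists were chosen with earlier results of these data known, and the groups by residue were drawn up after the calls were seen. Computation was in Python 3.11.15 with pandas 2.3.3, numpy 2.4.6 and scipy 1.17.1, and plots were drawn with matplotlib 3.10.9. On simulated data over 16457 genes, 200 of 200 genes given an interval near the start were recovered.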

Additional observations from a re-analysis of the deposited data

How the results depend on the processing

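Of 75 values under an alternative, 63 stayed within 1.5 times the reported count, or inside the 95% interval of the median height, and 12 moved beyond that. Some of the 63 could not have moved. None of the 32 member intervals was called in the input, so leaving out input calls changed nothing by construction. Chromosome 15 held 4 members, too few to move the member count beyond the limit. The genes of these names on chromosomes X and Y are all erasers, so adding them left the writers unchanged. The 63 are thus no measure of robustness. With heights at or above the median of 16, 8 of 24 erasers and 12 of 30 writers had an interval, against 11.2% of all genes, which turned the order of their shares. A summit at a start was then found at 5 of 16 erasers and 6 of 25 writers, against 6.17%, and that order did not turn. With heights of at least 19, 10 members had an interval, 7 writers and 3 erasers, from 11 intervals with a median height of 21, against 6.4% of all genes. A summit at a start was then found at 5 members, 3 of 25 writers and 2 of 16 erasers, against 3.35%, with nearly equal shares. Counting only the nearest coding gene left 8 erasers and 11 writers, against 13.9%, and allowing 50 kb gave 53 intervals. A higher threshold and a single gene per interval lower counts by construction, and why erasers lost more than writers was not tested. Leaving out chromosome 15 and using the outermost start of the gene model were chosen after seeing the data. No paired analysis was possible because 1 library stood for each group, and no replicate could be left out. The unknown depth limits every absence of a call.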

Other observations

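Of the genes of the same name rule on the sex chromosomes, which the autosomal rule leaves out, Kdm5c, an H3K4 demethylase gene on chromosome X, had a Myc-Tag interval of height 14 (chrX:152233056-152233791) at an end of the gene, while Kdm6a, Hdac6 and Hdac8 on chromosome X and Kdm5d on chromosome Y had none within 10 kb. The nearest interval to Hdac6 was 30.5 kb from the gene, with a height of 13. None of the 5 annotated pseudogenes of the same names had an interval within 10 kb, and the share over all pseudogenes was not computed.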
